A study of Mus musculus with 12 samples.

Results

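Genes that mark the luminal epithelium of the mammary gland were examined for binding of 2 steroid receptors: the keratin genes Krt8, Krt18 and Krt19, the claudin genes Cldn3, Cldn4 and Cldn7, the adhesion gene Epcam and the transcription factor gene Elf3. These are 8 of 21887 coding genes in the gene table used and were grouped by function, not by a threshold on their peaks. A peak was assigned to a gene when its summit lay within 50 kb of the gene's span on mm10. The windows of Krt8 and Krt18 overlap, as do those of Cldn3 and Cldn4, so the 8 genes form 6 loci and a peak was counted once per locus. Of 741142 peaks in 8 libraries, 760 fell at these loci.

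ChIP-seq against ERα, the estrogen receptor that Esr1 encodes, and against PR, the progesterone receptor, was done on whole mammary glands from mice raised to 8 weeks of age and then implanted with estradiol and progesterone, with glands taken 4 days after implantation. The 4 groups were ERα in Y541S glands, ERα in WT glands, PR in Y541S glands and PR in WT glands, each with 2 biological replicates. Y541S is a substitution in ERα, and the labels do not give its zygosity, how many animals a replicate held, or whether ERα and PR were precipitated from the same chromatin. All 4 groups received both hormones, so no unstimulated gland is among them, and the samples with the D542G mutation were not analysed here. The comparisons ask where the 2 receptors meet chromatin at luminal genes, and whether the mutant receptor changes it. Luminal cells are named in the title of the series, but the labels give whole glands, in which luminal cells are mixed with basal, adipose, stromal and immune cells. The cells behind a peak are therefore not known, and more bound cells cannot be told apart from more binding per cell.

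Keratin 8 and keratin 18 pair to form the intermediate filaments of simple epithelia, and keratin 19 joins the same filaments. Claudins are the membrane proteins that set the permeability of tight junctions, EpCAM is an adhesion molecule of epithelial cells that binds claudin-7, and ELF3 is an epithelial member of the ETS family of transcription factors. In the mammary gland ERα and PR are found in a subset of luminal cells, which relay hormone signals to their neighbours.

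The deposited lists held 106926 and 105612 peaks for ERα in Y541S, 72566 and 64488 for ERα in WT, 113695 and 101382 for PR in Y541S, and 82982 and 93491 for PR in WT. A very low quantile of the expected coverage under the peaks of a list was taken as a stand-in for sequencing depth. Its link to read numbers was not tested. The quantile was 0.927 in WT PR replicate 2 and 2.68 in WT PR replicate 1, with the other libraries between them. Each −log10 p in the lists was at least 2. The lists therefore differ in length and in this stand-in for depth, and both may enter the numbers of peaks given here.

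The 6 loci carried more PR than ERα peaks in both genotypes, and more ERα peaks in Y541S than in WT glands. ERα had 95 and 81 peaks there in the Y541S libraries and 67 and 63 in the WT libraries. PR had 124 and 115 peaks in the Y541S libraries and 98 and 117 in the WT libraries. The ERα values of the genotypes did not overlap, and their means differed by 23 peaks. The PR values of the genotypes overlapped, with a mean difference of 12 peaks, made up of 26 between the libraries numbered 1 and −2 between those numbered 2. Per 10000 peaks of a list, ERα had 8.88 and 7.67 in Y541S and 9.23 and 9.77 in WT, and PR had 10.9 and 11.3 in Y541S and 11.8 and 12.5 in WT. Relative to list length, both Y541S values thus lay below both WT values for both receptors, with mean differences of −1.22 for ERα and −1.04 for PR. With −log10 p of at least 5 the ERα difference turned to 0.401 per 10000. When each list was held to its 20000 strongest peaks, the difference between genotypes was 1 peak for ERα and −2 peaks for PR.

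**Figure D1:**
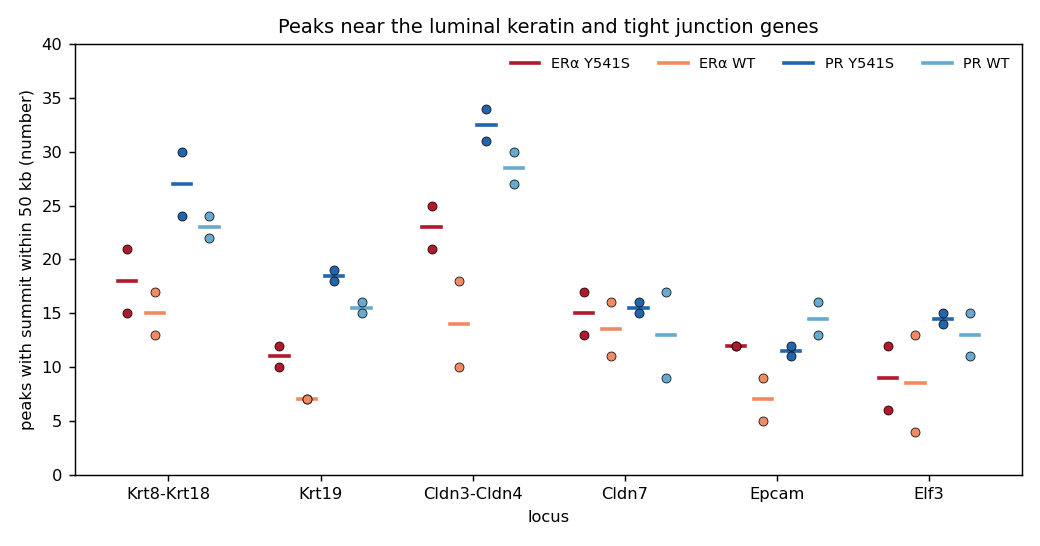
Number of peaks with a summit within 50 kb of the genes, for each of the 6 loci (horizontal axis); points are libraries and bars are the means of 2 replicates, in the order ERα Y541S, ERα WT, PR Y541S and PR WT. PR points lie above ERα points of the same genotype at Krt8-Krt18, Krt19 and Cldn3-Cldn4, and the groups mix at Cldn7.

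The plot of peaks by locus shows how unevenly the loci contributed. Around Krt8 and Krt18 there were 21 and 15 ERα peaks in Y541S and 17 and 13 in WT, and 30 and 24 PR peaks in Y541S and 22 and 24 in WT. Around Krt19 there were 12 and 10 ERα peaks in Y541S and 7 in each WT library, and 19 and 18 PR peaks in Y541S and 16 and 15 in WT. Krt19 was thus one of the loci where both Y541S values exceeded both WT values for both receptors. The Cldn3 and Cldn4 locus, where both claudin genes lie 39.3 kb apart, was the other. It had 21 and 25 ERα peaks in Y541S and 10 and 18 in WT, and 34 and 31 PR peaks in Y541S and 27 and 30 in WT. Cldn7 had 17 and 13 ERα peaks in Y541S and 11 and 16 in WT, and 16 and 15 PR peaks in Y541S and 9 and 17 in WT, so its 4 groups overlapped. Epcam had 12 ERα peaks in each Y541S library and 9 and 5 in WT, but 11 and 12 PR peaks in Y541S and 13 and 16 in WT. Its 2 receptors moved in opposite directions between the genotypes. Elf3 had 12 and 6 ERα peaks in Y541S and 13 and 4 in WT, and 14 and 15 PR peaks in Y541S and 11 and 15 in WT, and its genotypes overlapped for both receptors.

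With 2 libraries a group, a two-sided exact permutation test cannot give a p below 0.333 for 1 receptor, and none of these single contrasts can pass 0.05. Over both receptors the smallest possible exact permutation p is 0.0556, which 2782 of 20268 coding genes tested reached for the genotype. Krt19, with a mean difference of 3.5 peaks between Y541S and WT, and the Cldn3 and Cldn4 locus, with 6.5, reached that value (exact permutation p = 0.0556). Per 10000 peaks of a list neither difference held. It was −0.0167 at Krt19 (exact permutation p = 0.944) and −0.0631 at Cldn3 and Cldn4 (0.833), where PR had 2.99 and 3.06 in Y541S and 3.25 and 3.21 in WT. For ERα minus PR over both genotypes, the mean difference was −8.5 peaks at Krt8 and Krt18, −8 at Krt19 and −12 at Cldn3 and Cldn4. Each again had the smallest exact permutation p of 0.0556, as did 2491 of 20268 coding genes tested. Per 10000 peaks the difference was −0.620 at Krt8 and Krt18, −0.715 at Krt19 and −1.0 at Cldn3 and Cldn4, with the same exact permutation p of 0.0556. In numbers of peaks the difference was −5 at Elf3 (exact permutation p = 0.167), −3.5 at Epcam (0.333) and 0 at Cldn7 (1). Per 10000 peaks it was −0.385 at Elf3 (exact permutation p = 0.333), −0.289 at Epcam (0.222) and 0.257 at Cldn7 (0.556). No gene could pass 0.05 after Benjamini-Hochberg adjustment over the coding genes tested, since the smallest unadjusted exact permutation p is 0.0556. The adjusted exact permutation p was 0.452 for ERα minus PR at Krt8, Krt18, Krt19, Cldn3 and Cldn4. For the genotype it was 0.405 at Krt19 and Cldn3. Both are the smallest adjusted values of any coding gene tested. If the libraries of a replicate shared chromatin, these p-values would be too small.

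Counted gene by gene, both ERα values in Y541S exceeded both in WT for 4 of 8 genes (Krt19, Cldn3, Cldn4 and Epcam), beside 44.8% of the coding genes with ERα peaks. For PR the count was 3 of 8 (Krt8, Krt19 and Cldn3), beside 27.5% of coding genes with PR peaks. Both shares are near those of all genes. The contrast between receptors stood further from its background. In Y541S glands both ERα values lay below both PR values for 6 of 8 genes (all but Cldn7 and Epcam), beside 19.5% of coding genes, and in WT glands for 6 of 8 (all but Cldn7 and Elf3), beside 29.2%. Both ERα values lay above both PR values for 0 of 8 genes in Y541S (beside 17.1% of coding genes) and 0 of 8 in WT (4.94%). The 8 genes are not independent, since Krt8 shares peaks with Krt18 and Cldn3 with Cldn4. In lists of the 20000 strongest peaks the counts were 4 of 8 in Y541S and 5 of 8 in WT. The share of coding genes was not computed for these lists, so the counts have no background. The summed difference between ERα and PR shrank to −4.5 peaks in Y541S and −7.5 in WT, against −31.5 and −42.5 in the full lists. The direction at Elf3 turned in these lists in both genotypes, to 1 peak in Y541S and 1 in WT, and at Krt19 in Y541S to 0.5.

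The 8 genes also stood high among all genes in PR peaks. The median of the 8 windows was 14.25 ERα peaks in Y541S and 9.5 in WT, and 19.75 PR peaks in Y541S and 17 in WT. Over all coding genes the medians were 9.5 ERα peaks in Y541S and 6.5 in WT, and 9 PR peaks in Y541S and 8 in WT. Windows of the 8 genes held a median of 4.5 coding genes, against 4 for all coding genes. Cldn3 had more PR peaks than 97.3% of coding genes in Y541S and 98.0% in WT. Krt8 had more than 95.7% in Y541S and 94.9% in WT, and Cldn4 more than 95.3% and 95.4%. Elf3 exceeded 75.4% of coding genes in PR peaks in Y541S and 77.8% in WT. For ERα most of these genes ranked lower. Cldn3 exceeded 92.4% in Y541S and 76.9% in WT, Cldn4 85.7% and 61.7%, and Krt18 79.5% and 79.6%. Krt8 exceeded 77.2% in Y541S and 74.1% in WT, Krt19 59.2% and 52.0%, and Elf3 46.4% and 61.7%. Cldn7 ranked higher for ERα than for PR, at 81.7% and 79.5% in Y541S and 88.7% and 77.8% in WT. Epcam did so in Y541S, at 65.6% for ERα and 60.8% for PR, but not in WT, at 52.0% for ERα and 84.7% for PR.

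**Figure D2:**
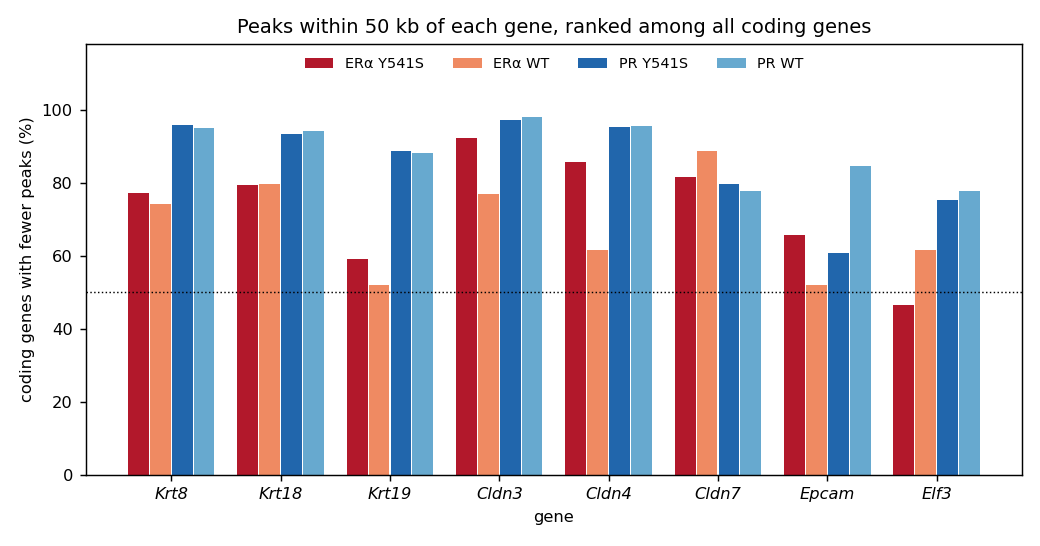
Share of coding genes with fewer peaks within 50 kb than each of the 8 genes (vertical axis, percent), by the mean of 2 libraries, for ERα Y541S, ERα WT, PR Y541S and PR WT; the dotted line marks 50%. PR bars stand above ERα bars of the same genotype for Krt8, Krt18, Krt19, Cldn3, Cldn4 and Elf3; for Cldn7 they do not, and for Epcam they do in WT glands only.

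Overlapping peaks were merged into regions to follow single sites across libraries. A region was shared when all 4 libraries of a receptor had a peak in it, Y541S-only when both Y541S and neither WT library did, and WT-only in the reverse case. Of 148 ERα regions at the 6 loci, 22 were shared (14.9%, beside 8.92% of all ERα regions), 7 were Y541S-only (4.73%, beside 4.48%) and 1 was WT-only (0.676%, beside 0.63%). Of 190 PR regions, 49 were shared (25.8%, beside 19.8%), 10 were Y541S-only (5.26%, beside 6.92%) and 0 were WT-only (beside 0.558%). The shares of genotype-specific regions were therefore near the genome's, while constant regions took a larger part. The genome's shares include regions far from any gene, so they are not those of gene windows. In equally long lists there were 1 Y541S-only ERα region and 2 Y541S-only PR regions. Shares of all regions were not computed for these lists, so the 2 counts have no background.

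Each of the 8 genes had a shared ERα region within its window (beside 72.4% of coding genes) and a shared PR region (beside 78.2%). A Y541S-only ERα region lay near 7 of 8 genes, Krt19 being without one (beside 49.4%), and a Y541S-only PR region near 7 of 8, Epcam being without one (beside 55.2%). Regions merged over all 8 libraries numbered 228 at the loci. Of these, 16 had a peak in every library (7.02%, beside 3.76% of all regions), and 6 of the 8 genes had such a region, Epcam and Elf3 being without (beside 64.8%). A further 9 had a peak in all 4 PR libraries and in no ERα library (3.95%, beside 2.55%), near Krt8, Krt18, Cldn3, Cldn4 and Epcam (5 of 8 genes, beside 41.6%). The reverse, all 4 ERα and no PR library, was found at 1 region (0.439%, beside 0.505%). Of the 22 shared ERα regions, 16 overlapped a PR peak in all 4 PR libraries (beside 59.4% of all shared ERα regions) and 1 in none (8.29%). Of the 49 shared PR regions, 16 overlapped an ERα peak in all 4 ERα libraries (beside 31% of all shared PR regions) and 9 in none (21.6%). Of the 7 Y541S-only ERα regions, 6 overlapped a PR peak in at least 1 library (beside 67.3%), and of the 10 Y541S-only PR regions, 7 overlapped no ERα peak (beside 53.4%).

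**Figure D3:**
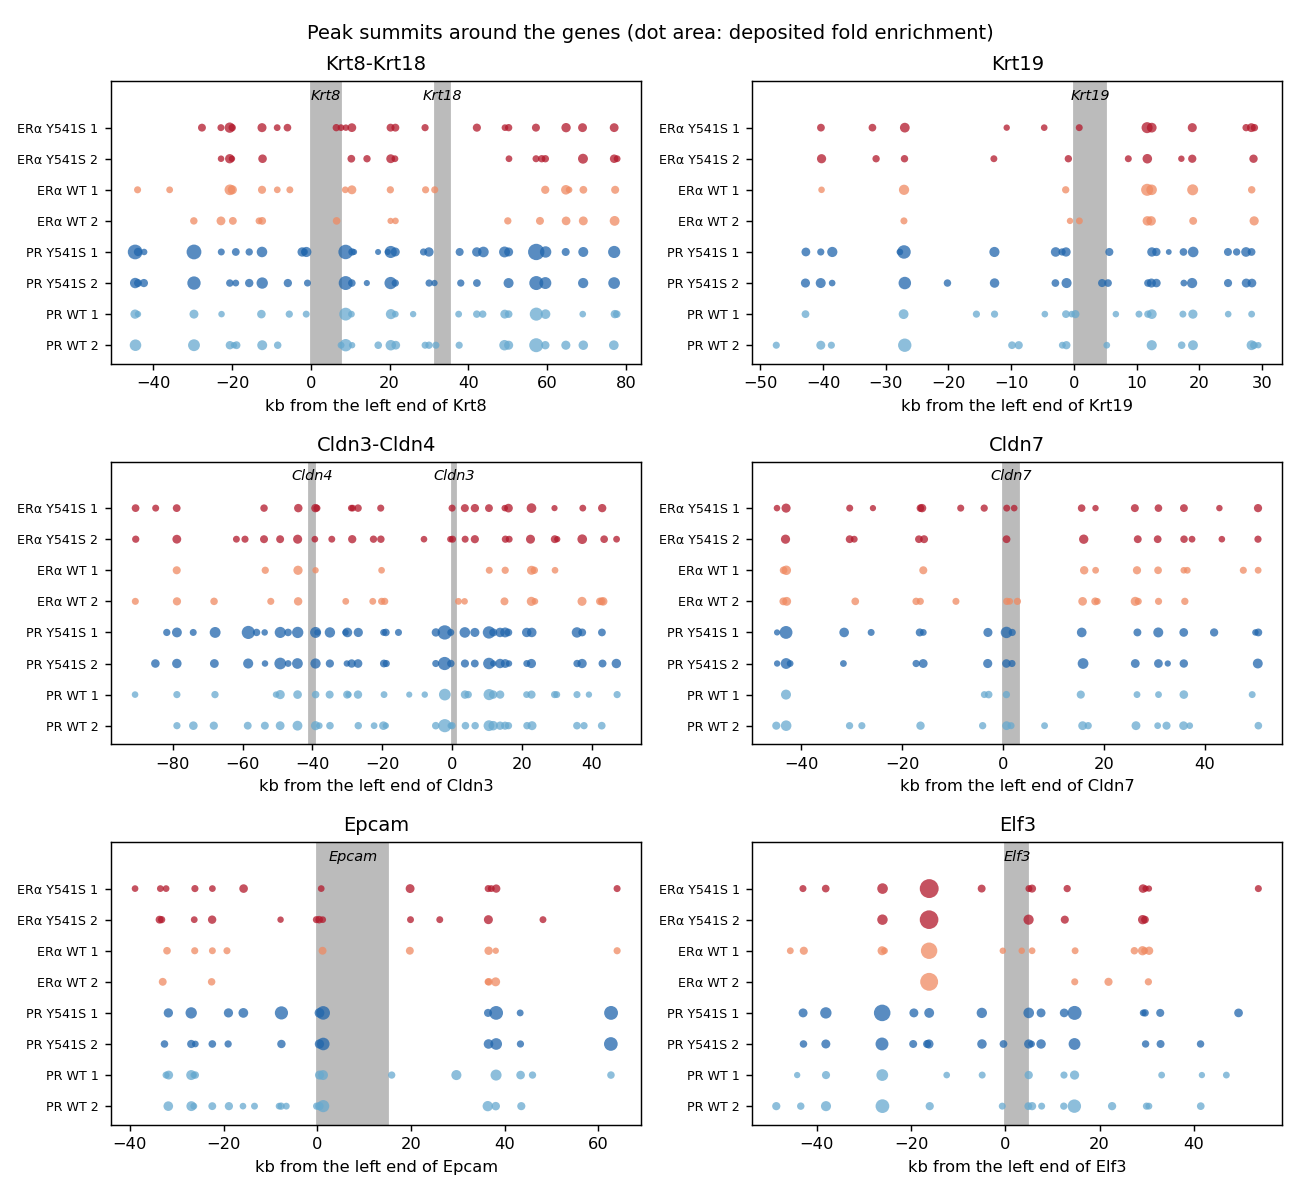
Position of each peak summit in kb from the left end of the named gene along the chromosome (horizontal axis), 1 row per library, ERα Y541S at the top and PR WT at the bottom; dot area follows the deposited fold enrichment and grey bands are the genes. A strong ERα column left of Elf3 is present in all 4 ERα libraries, and strong PR columns stand beside Krt8, right of Krt18 and left of Cldn3.

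At the keratin pair on chromosome 15, Krt8 (101996711 to 102004342) and Krt18 (102028216 to 102032026) are separated by 23.9 kb, and the strongest sites were PR sites outside the genes. The best ranked PR region, chr15:102053557-102054198, lay 21.9 kb beyond Krt18 toward Eif4b, a translation initiation factor gene. Its deposited fold enrichment over local expectation was 16.4 and 12.0 in Y541S and 10.5 and 12.0 in WT, and its peaks ranked 708 and 1387 in the Y541S lists and 1229 and 1849 in the WT lists. ERα had peaks there in both Y541S libraries (folds of 3.95 and 3.04) and in neither WT library, which makes it the Y541S-only ERα region of this locus. The mutant ERα peaks thus lay on a site with PR in both genotypes, at ranks of 33975 and 71774. A PR region 1.22 kb from the start of Krt8, chr15:102005144-102005902, had folds of 12.9 and 11.9 in Y541S and 10.1 and 9.43 in WT, with ERα in 1 library of each genotype.

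Between the keratin genes, chr15:102016516-102017339 had a peak in all 8 libraries, with ERα folds of 3.88 and 4.84 in Y541S and 3.23 and 2.38 in WT, and PR folds of 9.03 and 9.30 in Y541S and 6.30 and 6.76 in WT. There were 3 more regions with all 8 libraries: chr15:101983457-101984757 within Krt78, another keratin gene, chr15:102065510-102066150, and chr15:102073240-102074766 at the start of Eif4b. The last of these held the best ranked shared ERα region of the locus, with ERα folds of 4.82 and 4.47 in Y541S and 3.97 and 5.92 in WT. The starts themselves were nearly free of peaks. A peak overlapped the 300 bases around the start of Krt8 in 1 Y541S ERα and 1 WT PR library, and around that of Krt18 in 1 WT ERα and 1 Y541S PR library. PR alone, in all 4 libraries, was found at 2 regions. The stronger, chr15:101951856-101952483, lay within Krt78 and 44.6 kb from Krt8, with folds of 13.3 and 6.70 in Y541S and 5.30 and 8.21 in WT. The weaker, chr15:102034140-102035030, lay 2.23 kb past Krt18, with folds of 3.94 and 3.24 in Y541S and 2.86 and 3.17 in WT. Of the Y541S-only PR regions here, both lay within Krt78, at chr15:101980919-101981221 (folds of 3.30 and 4.30) and chr15:101954245-101954518 (2.60 and 4.16).

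Krt19 lies in the type I keratin cluster of chromosome 11 at 100140810 to 100145926, with Krt15 and Krt9 as its neighbours. It held 4 regions with a peak in all 8 libraries and 0 with PR alone in all 4 PR libraries. The nearest, chr11:100152265-100153365, lay 6.56 kb from the gene, with ERα folds of 7.46 and 5.60 in Y541S and 8.93 and 5.54 in WT, and PR folds of 5.36 and 5.02 in Y541S and 5.77 and 6.32 in WT. It held the best ranked ERα region of the locus. The best ranked PR region, chr11:100113273-100114100, lay 27.0 kb away beside Krt13, a keratin gene of stratified epithelia, with PR folds of 11.2 and 9.61 in Y541S and 5.93 and 11 in WT. The other 2 were chr11:100159397-100160111 and chr11:100168837-100169769. The 3 Y541S-only PR regions lay at chr11:100153781-100154216 (folds of 4.25 and 4.49), chr11:100168068-100168432 (5.75 and 4.93) and chr11:100137740-100138088 (5.67 and 3.65), the last 2.91 kb from Krt19. ERα had no genotype-specific region at Krt19.

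**Figure D4:**
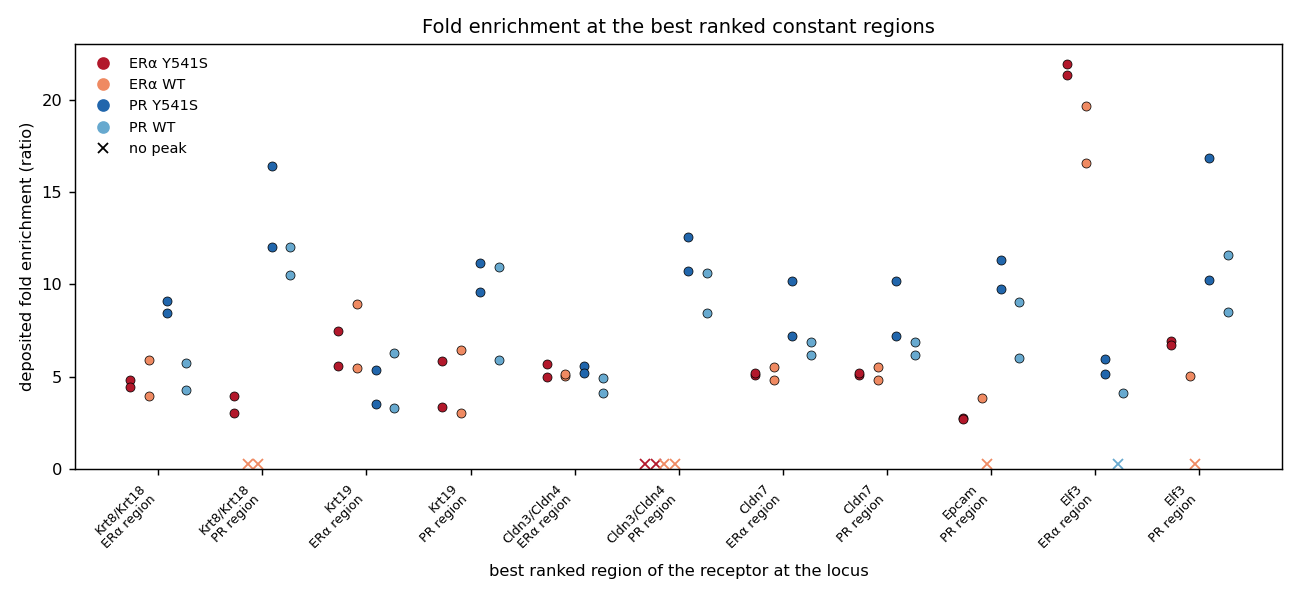
Deposited fold enrichment (vertical axis, ratio of coverage to local expectation) in each library at the best ranked shared ERα region and the best ranked shared PR region of each locus (for Epcam the PR region alone); crosses mark libraries without a peak. Folds are not scaled between libraries. The Elf3 ERα region has ERα folds from 16.6 to 21.9, the next highest value is 16.8 for PR in 1 Y541S library at the Elf3 PR region, and the Cldn3/Cldn4 PR region has no ERα peak.

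The locus of Cldn3 and Cldn4 on chromosome 5 was the richest in PR sites without ERα, with 6 of the 9 such regions. It also held the most shared PR regions, 15 of 49. The best ranked was chr5:134983903-134984301, 2.07 kb upstream of Cldn3 (134986214 to 134987476). Its PR folds were 12.6 and 10.7 in Y541S and 8.46 and 10.6 in WT, at ranks of 2620 and 2495 in the Y541S lists and 2332 and 1515 in the WT lists. No ERα library had a peak there, as the plot of the best ranked regions shows. A neighbouring PR region, chr5:134996545-134997065, 9.37 kb past Cldn3, had PR folds of 9.40 and 8.19 in Y541S and 7.61 and 7.16 in WT, and ERα in 1 library of each genotype. The start of Cldn3 itself was overlapped by PR peaks in both Y541S libraries and 1 WT library, and by ERα in 1 Y541S library.

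Cldn4 (134945123 to 134946934) had PR at its start in all 4 PR libraries, at chr5:134946882-134947354. The folds were 7.44 and 6.42 in Y541S and 3.55 and 5.13 in WT, with summits 179 and 160 bases before the start in Y541S and 186 and 141 bases before it in WT. ERα peaks overlapped the same start in both Y541S libraries (folds of 4.34 and 2.74) and in 1 WT library (2.48). Of all promoters with a start in the table, 46.1% and 47.0% were overlapped by ERα peaks in Y541S and 39.9% and 37.7% in WT, and 46.4% and 49.3% by PR peaks in Y541S and 29.1% and 45.2% in WT, so a peak at a start is common in these lists. The 250 bases before the start of Cldn4, from RefSeq on GRCm38.p6 (chr5:134946935-134947184, minus strand), are shown because all 4 PR summits fall within them. Capitals mark 2 matches to the AP-1 motif TGANTCA and 1 match to the estrogen response half-site AGGTCA, which reads TGACCT on this strand.
Cldn4: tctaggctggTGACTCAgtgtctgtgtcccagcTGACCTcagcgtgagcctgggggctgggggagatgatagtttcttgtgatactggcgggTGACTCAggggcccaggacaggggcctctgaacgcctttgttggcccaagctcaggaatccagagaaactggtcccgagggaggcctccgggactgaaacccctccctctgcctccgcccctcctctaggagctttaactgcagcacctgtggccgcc
The second AP-1 match spans the bases 158 to 152 before the start, inside the range of the 4 PR summits. Searched on both strands, TGANTCA was found in 6.75% of 32817 promoters of the same length and AGGTCA in 14.0%. A match describes letters and not binding.

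Elsewhere at this locus, 3 regions had peaks in all 8 libraries: chr5:134941516-134942409 within Mettl27 and 3.06 kb from Cldn4, chr5:134906898-134907677 near the start of Tmem270, and chr5:135008453-135010122 at the start of Abhd11. The last had ERα folds of 5.72 and 4.99 in Y541S and 5.04 and 5.15 in WT, and was the best ranked shared ERα region. The region with ERα in all 4 ERα and no PR library, chr5:134965645-134966098, lay between the claudin genes, 18.9 kb from Cldn4, with low folds of 3.08 and 3.41 in Y541S and 2.74 and 3.16 in WT. This locus also held 3 of the 7 Y541S-only ERα regions. The best ranked, chr5:134992585-134993102, lay 5.27 kb past Cldn3 with folds of 4.23 and 4.10, and PR had peaks there in both Y541S and 1 WT library. The next, chr5:135002280-135002627, had folds of 4.66 and 2.93, and again PR in both Y541S and 1 WT library. The 2 Y541S-only PR regions lay at chr5:135023332-135023727 by the start of Stx1a (3.79 and 5.30) and chr5:134939099-134939372 within Mettl27 (3.54 and 2.82).

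Cldn7 (chromosome 11, 69964779 to 69967886) lies in a gene-dense stretch with 12 coding genes in its window, and its constant sites were mostly those of its neighbours. All 5 of its regions with peaks in all 8 libraries lay at starts of other genes: Eif5a (chr11:69921103-69922755), Elp5 (chr11:69979810-69981024), Gabarap (chr11:69990715-69991895), Phf23 (chr11:69995149-69996001) and Dvl2 (chr11:70000348-70001081). Over the 6 loci, 8 of the 16 regions in all libraries had a summit within 1 kb of a start in the RefSeq table. Over the genome, 4849 of the 12113 regions in all libraries did, so the share at the loci was near its background. Each of the starts at the loci belonged to a neighbour. The Eif5a region held both the best ranked ERα and the best ranked PR region of the locus, with ERα folds of 5.10 and 5.19 in Y541S and 5.53 and 4.84 in WT, and PR folds of 10.2 and 7.20 in Y541S and 6.16 and 6.87 in WT. Cldn7 itself had a shared PR region at the second of its 2 starts, chr11:69965127-69965832, with folds of 8.04 and 4.53 in Y541S and 3.29 and 4.77 in WT. ERα peaks overlapped that start in both Y541S libraries (folds of 2.98 and 3.75) and in 1 WT library (3.28). The Y541S-only regions were 1 of ERα at chr11:69934139-69934585 (3.0 and 3.77) and 1 of PR at chr11:69933075-69933412 (5.68 and 2.82), both near Ybx2.

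Epcam (chromosome 17, 87635979 to 87651127) had its strongest PR site inside the gene, 1.26 kb after its start. That region, chr17:87636917-87637540, had PR folds of 11.3 and 9.76 in Y541S and 6.04 and 9.05 in WT, and weak ERα peaks in both Y541S libraries (2.78 and 2.73) and 1 WT library (3.84). Exons and introns were not separated in the gene table. A second shared PR region, chr17:87635694-87636602, covered the start once merged, with folds of 5.81 and 5.32 in Y541S and 5.02 and 4.29 in WT, while the 300 bases around the start were reached by the peaks of 1 Y541S and 1 WT library. A shared ERα region, chr17:87613082-87613717, lay 22.5 kb upstream of Epcam, with folds of 2.79 and 4.32 in Y541S and 2.94 and 3.44 in WT. The Y541S-only ERα region, chr17:87602167-87602798, lay 33.7 kb upstream with folds of 2.82 and 3.86, and no PR library had a peak there. The 250 bases before the start (chr17:87635729-87635978, plus strand, RefSeq on GRCm38.p6) are shown because the merged PR region spans them and they hold a match to the palindromic progesterone response element, in capitals.
Epcam: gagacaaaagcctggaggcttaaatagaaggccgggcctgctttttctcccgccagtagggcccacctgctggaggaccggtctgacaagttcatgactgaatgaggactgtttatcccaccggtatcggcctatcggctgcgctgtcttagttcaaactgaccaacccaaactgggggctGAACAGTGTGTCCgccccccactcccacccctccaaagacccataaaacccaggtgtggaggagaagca
The match spans the bases 69 to 57 before the start. The palindrome, searched on both strands with any bases in its spacer and 1 free base in each arm, was found in 0.387% of the 32817 promoters, and in none of the other promoters of these genes in the table. Of the PR peaks that reached the start, the one in Y541S had its summit 467 bases after it and the one in WT 140 bases before it.

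Elf3 (chromosome 1, 135253574 to 135258472) had the strongest ERα site of the 6 loci and one of the strongest of the lists. The region chr1:135237043-135238123 lay 16.1 kb beyond the 3′ end of Elf3 and 21 kb from its start. ERα folds were 21.9 and 21.3 in Y541S and 16.6 and 19.7 in WT, and the summit coverage recovered from the deposited values was 251 and 160 in Y541S and 263 and 131 in WT. The peaks ranked 23 and 46 in the Y541S lists and 30 and 37 in the WT lists. PR peaks in the region were weak, with folds of 5.97 and 5.16 in Y541S, none in the first WT library and 4.15 in the second, at ranks of 47881 and 41726 in Y541S and 50036 in WT. The best ranked PR region of the locus was another, chr1:135227125-135227913, 31.0 kb from the start, with PR folds of 16.8 and 10.2 in Y541S and 8.52 and 11.6 in WT, and ERα folds of 6.93 and 6.71 in Y541S and 5.03 in 1 WT library.

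At the start of Elf3, ERα had a Y541S-only region, chr1:135258320-135258694, with folds of 2.95 and 6.39 in the Y541S libraries. A WT ERα peak with a fold of 2.81 lay beside it, within the wider PR region at the start but outside the ERα one. That PR region, chr1:135258337-135259438, was shared, with folds of 6.93 and 5.17 in Y541S and 4.28 and 4.15 in WT. The WT-only ERα region of the 6 loci, chr1:135268223-135268456, lay 9.83 kb from Elf3 inside the aminopeptidase gene Rnpep, with folds of 2.91 and 3.06, inside a shared PR region with folds of 12.0 and 8.59 in Y541S and 5.22 and 11.1 in WT. The 2 Y541S-only PR regions were chr1:135233957-135234306 (4.93 and 3.89) and chr1:135210429-135210933 (4.92 and 3.49). The 250 bases before the start of Elf3 (chr1:135258473-135258722, minus strand, RefSeq on GRCm38.p6), which hold the Y541S-only ERα summits at 110 and 36 bases before the start, are shown for comparison.
Elf3: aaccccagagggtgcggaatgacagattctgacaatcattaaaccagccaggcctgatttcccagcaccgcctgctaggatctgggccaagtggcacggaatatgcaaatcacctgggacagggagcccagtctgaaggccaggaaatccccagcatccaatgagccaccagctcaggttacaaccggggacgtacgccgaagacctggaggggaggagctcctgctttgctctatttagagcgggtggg
They hold no match to the AP-1 motif or the estrogen half-site searched above, to the progesterone half-site AGAACA (16.1% of promoters), or to the palindromic estrogen (0.0640% of promoters) and progesterone response elements, which says only that these letters are not in this window. Among the other genes, AGGTCA on either strand was found before the starts of Krt8, Krt18 and both starts of Cldn7, and Cldn3 had no match to the 5 motifs.

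A wider list of 40 other epithelial keratin, junction and adhesion genes, all found in the gene table, was counted in the same way. Its median numbers of peaks lay between those of the 8 genes and of all coding genes. The median gene had 12.5 ERα peaks in Y541S and 8 in WT, and 16.25 PR peaks in Y541S and 13 in WT. A shared PR region lay near 39 of 40 (beside 78.2% of coding genes), a shared ERα region near 35 (72.4%), a region of all 8 libraries near 32 (64.8%) and a PR region without ERα near 28 (41.6%). Both ERα values in Y541S exceeded both in WT for 25 of 40 genes (beside 44.8%), and both PR values did so for 16 (27.5%). Both ERα values lay below both PR values for 18 of 40 in Y541S (beside 19.5%) and 24 of 40 in WT (29.2%). The genes with most shared regions were Cgnl1, a cingulin-like gene of cell junctions (7 for ERα and 17 for PR), Pard3, a polarity gene (7 and 15), and Cdh1, which encodes E-cadherin (2 and 16).

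Marker genes of other cells of the gland were counted in the same way. For comparison, both ERα values lay below both PR values for 19.5% of coding genes in Y541S and 29.2% in WT. Of 8 adipocyte genes, 0 had both ERα values below both PR values in either genotype, and 7 had a region with ERα in all 4 ERα libraries and no PR peak, against 2 of the 8 luminal genes (Cldn3 and Cldn4, which share it) and 11.1% of coding genes. Their medians were 13.75 ERα peaks in Y541S and 12.25 in WT, and 8.5 PR peaks in Y541S and 9 in WT. Of 10 basal and myoepithelial genes, 3 had both ERα values below both PR values in Y541S and 5 in WT, with medians of 12.75 ERα peaks in Y541S and 6.75 in WT and 11.75 PR peaks in Y541S and 10.25 in WT. Krt15, in this list, shares most of its window with Krt19. Of 6 endothelial genes 0 had ERα below PR in Y541S and 3 in WT, of 7 immune genes 0 and 1, and of 6 fibroblast genes 0 and 1. In lists of 6 or 7 genes, counts of 0 and 1 are near the shares of coding genes. Differences between these lists were not tested.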

How the data were processed

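Per the labels' protocols, each precipitation used 30 µg of chromatin from fixed glands, in fragments of 300 to 500 bp, and 4 µg of antibody against ERα or PR. The authors deposited 1 peak list per library, with a score, a fold enrichment at the summit (a ratio), a −log10 p and a −log10 q for each peak. Coordinates are on mm10, per the submitters' processing notes. Neither the aligner nor the peak caller was given in the sources used here. The deposited folds are not scaled between libraries and served to describe and rank peaks within a list.

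Genes and starts came from RefSeq tables of GRCm38.p6, the assembly equivalent to mm10. Of 21887 coding genes 79.9% had a start there, and 7 of the 8 genes studied did. Because this is under 80%, starts of some genes are missing, and only the share for regions in all 8 libraries was set against the genome. Peaks were merged on an overlap of at least 1 bp. Whole summit coverage and local expectation were recovered from fold and −log10 p for at least 99.9956% of each list, with a tolerance of 1e-04 on −log10 p. Peak numbers were compared with two-sided exact permutation tests (6 arrangements for 1 contrast, 36 over both receptors or genotypes), with Benjamini-Hochberg adjustment over coding genes with peaks. Libraries are the unit, and a p-value is the share of arrangements of these libraries with a mean difference at least as large as the observed one. Scripts were tested on simulated data.

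Named regions were, per locus and receptor, the best ranked shared region, each region in all 8 libraries and the up to 2 best ranked genotype-specific regions. Regions at a gene's start, those with PR or ERα alone, other strong PR regions beside the genes, and the shared ERα region given for Epcam, and any further Y541S-only regions were chosen after their values were seen. Some regions that meet the rule are not reported here. The genes and lists were chosen with earlier results of these data known. Alternatives were −log10 p of at least 5 and the 20000 strongest peaks of each list. In another, coverage was scaled to the library lowest in the stand-in for depth, with −log10 p of at least 3. The others were a 10 kb window, an overlap of 50% of the shorter peak, leaving out each library, and differences within replicate numbers. Replicate numbers were not taken to pair libraries. Python 3.11.15, numpy 2.4.6, scipy 1.17.1, pandas 2.3.3 and matplotlib 3.10.9 were used.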

Additional observations from a re-analysis of the deposited data

Results flagged for a closer look

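At Epcam the difference between Y541S and WT glands was 5 peaks for ERα and −3 peaks for PR. ERα had 12 peaks in each Y541S library and 9 and 5 in WT, and PR had 11 and 12 in Y541S and 13 and 16 in WT. It was picked out because the receptors differed by 8 peaks in opposite directions, with every Y541S library above every WT library for ERα and below for PR. The exact permutation p of the difference was 0.0556, the smallest that 36 arrangements allow, without adjustment over the 6 loci. Full separation in opposite directions fixes this p, so it adds nothing to the reason for which the locus was picked. Per 10000 peaks of a list, ERα had 1.12 and 1.14 at Epcam in Y541S and 1.24 and 0.775 in WT, so its genotypes overlapped, while PR had 0.968 and 1.18 in Y541S and 1.57 and 1.71 in WT. At −log10 p of at least 5 the PR difference was 0.5 peaks, so the opposition did not hold there.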

How the results depend on the processing

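The summed differences in peak number kept their direction under every setting run, except PR between Y541S and WT in equally long lists (−2) and within replicate 2 (−2). With −log10 p of at least 5, an equally long list, scaled coverage and a 10 kb window, in that order, the difference between Y541S and WT was 13.5, 1, 5.5 and 9.5 in ERα peaks. In PR peaks it was 35.5, −2, 23.5 and 0.5, and ERα minus PR was −54, −4.5, −59.5 and −16 in Y541S. In WT it was −32 with −log10 p of at least 5, −7.5 in equally long lists and −25 in a 10 kb window. Per 10000 peaks, the ERα difference between Y541S and WT turned to 0.401 with −log10 p of at least 5, 0.5 in equally long lists and 0.0719 in a 10 kb window, and was −0.0301 with scaled coverage. The PR one was −0.560 with −log10 p of at least 5 and −1.62 with scaled coverage. The causes were not tested.

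Counts of regions fell or rose with the settings. Shared ERα regions numbered 14, 9, 12 and 2 under the 4 settings named first, in the same order, and regions in all 8 libraries 8, 5, 8 and 2. Shared PR regions numbered 17 in equally long lists, 32 with scaled coverage and 18 in a 10 kb window. Y541S-only regions of ERα numbered 4, 1, 4 and 2 and those of PR 20, 2, 17 and 3. WT-only PR regions numbered 1 with −log10 p of at least 5, 3 in equally long lists, 1 with scaled coverage and 1 with an overlap of 50% of the shorter peak. PR regions without ERα numbered 3 in a 10 kb window, and ERα regions without PR 0 in that window, with −log10 p of at least 5 and with scaled coverage. Genes with both Y541S values above both WT values were 2, 2, 1 and 2 with ERα and 5, 1, 1 and 0 with PR. The shares of coding genes and of all regions under these settings were not computed.

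Leaving out 1 library loosens the definitions of classes and of groups that do not overlap. Without 1 library, ERα had 15 to 35 Y541S-only and 1 to 17 WT-only regions, PR had 22 to 34 and 1 to 26, and shared ERα regions numbered 21 to 36, the highest without WT replicate 2. PR regions without ERα numbered 9 to 16 and ERα regions without PR 1 to 2. For these counts of regions no share of all regions was computed. Genes with Y541S above WT numbered 4 to 7 for ERα and 3 to 6 for PR, again without a share of coding genes. The direction at Cldn7 and Elf3 rested on single libraries. Between Y541S and WT, Cldn7 ran from −1 to 4 for ERα and −1.5 to 6.5 for PR, and Elf3 from −4 to 5 for ERα and −0.5 to 3.5 for PR. ERα minus PR at Cldn7 ran from −2.5 to 1.5 in Y541S and −3.5 to 4.5 in WT.

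Further loci turned direction. Between Y541S and WT, ERα turned in equally long lists at Cldn7 (−1.5) and at Krt8 and Krt18 (−0.5), and with scaled coverage at Cldn7 (−0.5). PR turned in equally long lists at Krt8 and Krt18 (−1.5), in a 10 kb window at Cldn7 (−0.5) and Krt19 (−0.5), and with −log10 p of at least 5 at Epcam (0.5). ERα minus PR in Y541S turned in equally long lists at Cldn7 (2), Elf3 (1), Epcam (−1.5) and Krt19 (0.5), and at Epcam also with −log10 p of at least 5 (−6) and scaled coverage (−6.5). In WT it turned at Cldn7 with scaled coverage (−1) and in a 10 kb window (−1.5), and at Elf3 in equally long lists (1).

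With the replicate number as a block the mean differences are the same by construction: 23 for ERα and 12 for PR between Y541S and WT, and −31.5 in Y541S and −42.5 in WT for ERα minus PR. Within replicates 1 and 2 they were 28 and 18, 26 and −2, −29 and −34, and −31 and −54. Deviations of libraries with the same number correlated at 0.139 and −0.0769 across genotypes for ERα and PR, and at 0.112 and 0.0292 across receptors in Y541S and WT, over genes, so the numbers were not taken as pairs. A missing peak can be signal under the threshold, 2 libraries a group cannot pass 0.05, and the lists differ in length and in the stand-in for depth.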
